A study of Mus musculus with 64 samples.

Results

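Livers of old mice with body-wide inactivation of Myc were compared with livers of old wild-type mice. The comparison used 10 of the 64 RNA sequencing libraries of the study, 5 from Myc knockout mice (KO) and 5 from wild-type mice (WT), chosen as the liver libraries labelled 20 months. They are named here by their codes, K18L06 to K18L10 for KO and W18L01 to W18L05 for WT. The codes hold 18 while the age label gives 20 months, and 20 months is used. Per the labels, KO mice came from a cross of a B6.129 line carrying the allele Gt(ROSA)26Sortm1(cre/ERT2)Tyj, a tamoxifen-activated Cre recombinase placed in a ubiquitously expressed locus, with the line B6.129-B6.129S6-Myctm2Fwa/Mmjax, in which recombination sites flank Myc. WT mice are labelled C57/B6, so that KO and WT also differ in strain label and, by those labels, in the Cre allele, and these cannot be told apart from the loss of Myc. Both genotypes are labelled as given 5 daily tamoxifen injections of 75 mg/kg in corn oil, starting around weaning once a body weight of 15 g was reached. No other treatment is named. The labels do not say whether each library came from a separate animal, so p-values measure the spread between these libraries.

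Myc is a transcription factor that binds DNA as a dimer with Max, commonly at the E-box, and is known for raising the transcription of genes for ribosome assembly, protein synthesis, nucleotide synthesis and cell cycle entry. Max also pairs with the Mxd proteins, Mnt and Mga, which oppose Myc at shared sites. In the adult liver most hepatocytes are not dividing and Myc is kept at a low level, rising after injury or partial hepatectomy and in liver tumours.

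The libraries held 16.3 to 25.4 M reads on genes (median 22.8 M), with 16287 to 17221 genes detected, and 16.3% to 18.6% of all reads fell on the top 10 genes. The hepatocyte markers (Alb, Ttr, Apoa1, Hnf4a and others) summed to 136767 to 161858 CPM in KO and 137814 to 155354 CPM in WT livers, while the skeletal muscle markers summed to at most 1.04 CPM. CPM is the name the deposited table gives to its values, a read signal scaled per library. On the first principal component (24.1% of the variance) W18L04 stood apart at -37.8, the other WT libraries lay between -12.1 and 8.69 and the KO libraries between 7.05 and 16.9. W18L03, at 8.69, therefore lay among the KO libraries on that axis. W18L04 is named below beside some of the genes for which it lay far from the other WT livers.

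Myc was low in every KO liver. Its CPM values were 2.16, 2.61, 2.92, 1.12 and 1.75 in K18L06 to K18L10 and 7.61, 5.36, 5.47, 5.42 and 5.47 in W18L01 to W18L05. The highest KO value lay below the lowest WT value, with W18L01 above the other WT livers. KO livers averaged 2.11 ± 0.707 CPM (SD, n = 5), while WT livers averaged 5.87 ± 0.97 CPM (SD, n = 5), a 2.78-fold higher WT mean. On the log2(CPM + 1) scale, on which all differences below are KO minus WT, Myc fell by 1.16 (two-sided exact permutation test, p = 0.00794, the smallest that 252 splits allow). In the fit over all genes its adjusted p was 0.0377 (limma), 0.0591 with edgeR, and above 0.05 without K18L07, K18L09, K18L10, W18L01, W18L02, W18L04 or W18L05. The gene lies at chr15:61985341-61990361 (GRCm38.p6).

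The other genes of the Myc network were measured with 12 of 14 members passing the expression filter (more than 1 CPM in at least 5 of the 10 libraries). Among them 1 fell, Myc itself, and no member rose. Mycl, the paralog that also dimerises with Max, had 27.3, 25.6, 32.6, 30.8 and 30.9 CPM in KO and 17.8, 21.8, 16.5, 7.82 and 24.8 CPM in WT livers. Every KO value exceeded every WT value, but the difference of 0.78 did not pass the adjusted threshold (limma, adjusted p = 0.2). W18L04 was the lowest WT liver for Mycl, and without it the difference was 0.53. Mycn, the third family member, ranged from 0.13 to 0.837 CPM over the 10 libraries and was not tested. Max, the shared partner, ranged from 20.1 to 24.2 CPM in KO and 17.9 to 24.6 CPM in WT livers (log2 difference 0.07). Mga, a Max partner that represses transcription, ranged from 22.7 to 26.1 CPM in KO and 23.5 to 32.8 CPM in WT livers (log2 difference -0.19, adjusted p = 0.453).

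Across the genome the difference was small at this threshold. Of 12371 genes tested, 6 were called at an adjusted p under 0.05 (0.0485%), of which 2 rose (0.0162%) and 4 fell (0.0323%). The genes that fell were Mug2, Bid, Gt(ROSA)26Sor and Myc, and those that rose were H2-Q6 and H2-Q4 (limma, Benjamini-Hochberg adjustment over all genes tested). The unadjusted p was under 0.05 for 1593 genes (12.9%), 955 higher (7.72%) and 638 lower (5.16%), where 619 genes would be expected if no gene differed. The KO and WT values did not overlap for 305 genes (2.47%), with all KO values above all WT values for 178 (1.44%) and below for 127 (1.03%). The median log2 difference over all genes was 0.01, the median absolute difference was 0.13, and 76 genes differed by more than 1. The number of calls depended on single libraries and on the test: it was 88 without K18L06 and 35 without W18L03, between 2 and 7 without any other library, 5 with edgeR and 223 with DESeq2 on the recovered reads. Mug2 and Bid remained called in all 20 alternatives, and Myc in 8 of 20.

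**Figure D1:**
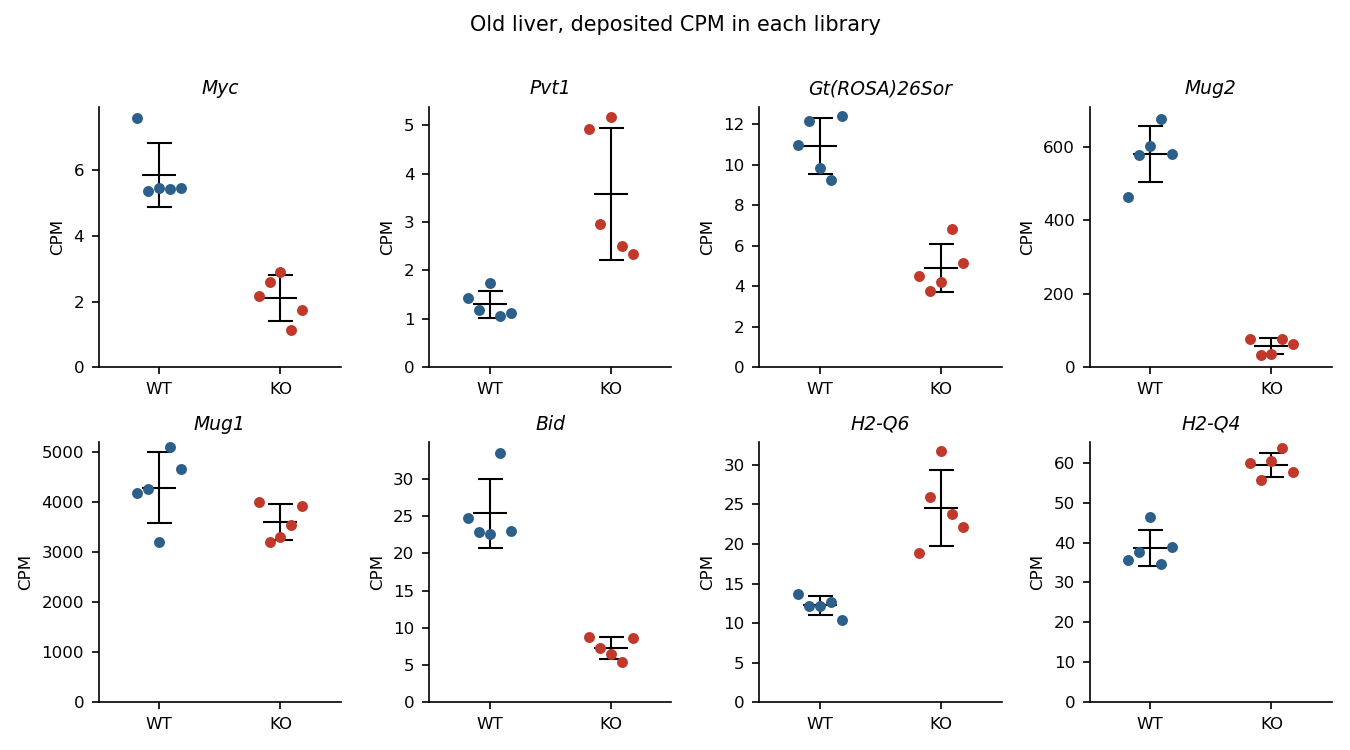
Deposited CPM of the 6 called genes and of Pvt1 and Mug1 in each old liver library (points), with the mean and SD of 5 WT (blue) and 5 KO (red) livers as black bars. Mug2 ranged from 32.4 to 77.9 CPM in KO and from 464 to 677 CPM in WT livers, while the values of its neighbour Mug1 overlapped.

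Of the 6 called genes 3 lie on chromosome 6, the chromosome of the Cre allele. Of all 12371 genes tested, 171 others lay within 20 Mb of Gt(ROSA)26Sor on that chromosome. On the rest of the chromosome 423 genes were tested. Gt(ROSA)26Sor, the noncoding transcript at the site of the Cre insertion (chr6:113067428-113077244), had 4.52, 3.78, 4.19, 6.85 and 5.17 CPM in KO and 11, 12.2, 9.82, 9.24 and 12.4 CPM in WT livers. All KO values were below all WT values, and the transcript fell by 1.03 (SE 0.15, limma adjusted p = 0.0332). It was not called without K18L07, K18L08, K18L10, W18L01, W18L02 or W18L05. Nor was it called with columns scaled to equal sums, without an expression filter or with all 4 liver groups in 1 fit. Thumpd3, which shares 851 bases with it in the reference, had a log2 difference of -0.13 (adjusted p = 0.738), and the use of strand in counting is not given in the sources used here. Bid, a BH3-only member of the Bcl2 family that links death receptors to mitochondrial apoptosis (chr6:120893119-120917062), had 8.83, 7.31, 6.5, 5.37 and 8.6 CPM in KO and 24.8, 22.9, 22.7, 33.5 and 23 CPM in WT livers. Its WT mean was 3.47-fold the KO mean, with W18L04 the highest of the WT livers and no overlap between groups. Bid fell by 1.67 (SE 0.15, limma adjusted p = 0.000321). Leaving out each library in turn gave differences between -1.73 and -1.57.

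Mug2, a murinoglobulin and so a protease inhibitor of the alpha-macroglobulin family secreted by the rodent liver (chr6:122006729-122085968), had the largest difference of the called genes. Its values were 75.4, 32.4, 35.7, 77.9 and 63.5 CPM in KO and 464, 579, 602, 677 and 580.2 CPM in WT livers. The lowest WT liver, W18L01, was still several times above the highest KO liver, and the WT mean was 10.2-fold the KO mean. Mug2 fell by 3.41 (SE 0.23, limma adjusted p = 2.69e-05). Its neighbour Mug1 had 4019, 3211, 3304, 3559 and 3932 CPM in KO and 4197, 4279, 3218, 5110.0 and 4679 CPM in WT livers, which overlapped (log2 difference -0.24, adjusted p = 0.52). Pzp, of the same family, ranged from 3363 to 4849 CPM in KO and 3761 to 6245 CPM in WT livers (log2 difference -0.22, adjusted p = 0.613). Mug1 and Mug2 are similar in sequence, so reads of the more abundant Mug1 may be shared with Mug2 in counting.

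The bases before the annotated starts of both murinoglobulin genes are shown because the genes are neighbours of similar sequence with different values (RefSeq, GRCm38.p6, plus strand, up to the start of the gene's span; capitals mark the longest run shared by the pair).
Mug2, chr6:122006548-122006728: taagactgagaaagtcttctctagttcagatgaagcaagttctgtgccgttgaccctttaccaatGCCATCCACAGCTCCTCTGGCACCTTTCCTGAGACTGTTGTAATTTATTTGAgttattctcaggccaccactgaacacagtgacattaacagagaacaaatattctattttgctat
Mug1, chr6:121838291-121838495: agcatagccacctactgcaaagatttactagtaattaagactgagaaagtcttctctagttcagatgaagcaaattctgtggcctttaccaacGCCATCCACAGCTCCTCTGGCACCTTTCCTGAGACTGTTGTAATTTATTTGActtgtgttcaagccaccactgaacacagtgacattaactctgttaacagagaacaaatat
They were identical at 152 of 178 aligned positions (85.4%), with a shared run of 52 bases. Neither held the E-box CACGTG, searched on both strands. In windows of 250 bases before the start, that motif was present for 10% of the 9920 tested genes with a promoter entry, for 10.8% of 139 genes with all KO values above WT and for 7.92% of 101 genes with all KO values below WT.

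The genes around Gt(ROSA)26Sor are given as a description, without a test. Within 10 Mb of it, the locus itself left out, 92 genes were tested and 2 of them, Bid and Mug2, were called (0.0485% of all genes). Genes without overlap made up 0% of 22 genes tested within 1 Mb, 5.77% of 52 within 5 Mb and 5.26% of 171 within 20 Mb. For 7.61% of the 92 genes within 10 Mb the KO and WT values did not overlap, against 2.47% of all genes, with 5 above and 2 below. Besides Bid and Mug2 these were Wnt5b, Zfand4, Washc2, Fbxl14 and Sumf1. Wnt5b, a secreted Wnt ligand, had 18.3, 18.5, 26.3, 22.4 and 16 CPM in KO and 6.05, 9.45, 14.2, 9.67 and 9.61 CPM in WT livers (log2 difference 1.0, adjusted p = 0.0834). Washc2, a subunit of the WASH complex of endosomes, ranged from 85.6 to 113 CPM in KO and 56.5 to 70.8 CPM in WT livers (log2 difference 0.51, adjusted p = 0.085), with W18L04 lowest (0.46 without W18L04). The median absolute log2 difference was 0.18 within 10 Mb and 0.13 over all genes. On the rest of the chromosome, more than 20 Mb away, 423 genes were tested, none was called and 2.36% did not overlap.

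Near Myc, 1 gene had no overlap within 10 Mb besides Myc itself. This was Pvt1, the long noncoding RNA next to Myc, which had 4.93, 2.96, 5.17, 2.51 and 2.33 CPM in KO and 1.43, 1.17, 1.73, 1.05 and 1.11 CPM in WT livers. All KO values exceeded all WT values, the opposite direction to Myc, with K18L06 and K18L08 highest (log2 difference 0.95, adjusted p = 0.0937). Within 10 Mb of Myc 48 genes other than Myc were tested (2.08% without overlap). Between 10 and 20 Mb lay 8 further genes without overlap, among them Parp10 (0.47, adjusted p = 0.0834) and the ribosomal protein gene Rpl3 (-0.49, adjusted p = 0.0882). In all, 4.29% of 210 genes within 20 Mb did not overlap and 1.08% of the 279 genes farther away on chromosome 15.

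**Figure D2:**
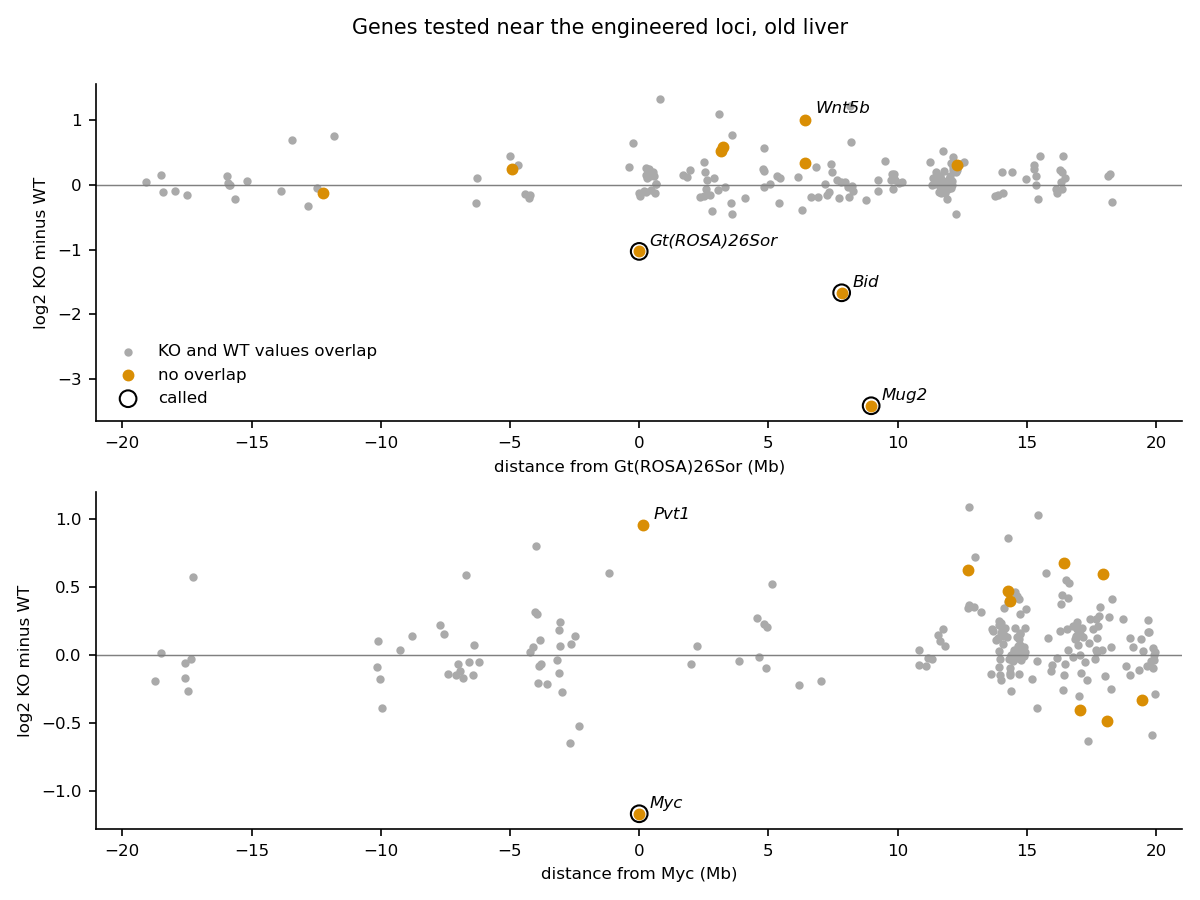
Log2 difference, KO minus WT, of each gene tested within 20 Mb of Gt(ROSA)26Sor (top) and of Myc (bottom), against the distance in Mb. Orange points are genes whose KO and WT values do not overlap and circles mark called genes: Bid and Mug2 lie 7.83 and 8.97 Mb from Gt(ROSA)26Sor, and Pvt1 lies 0.161 Mb from Myc.

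MHC class I genes, which present cytosolic peptides to CD8+ T cells, had mostly higher means in KO livers. Of 24 genes of this pathway 23 were tested: 2 rose (0.0162% of all genes rose), none fell, 5 had all KO values above all WT values (1.44% of all genes did) and 18 had a higher KO mean. The median log2 difference of the list was 0.27, against 0.01 over all genes. H2-Q6, a nonclassical class I gene of the Qa region (chr17:35424850-35430055), had 18.9, 25.9, 31.8, 23.8 and 22.1 CPM in KO and 13.7, 12.2, 12.2, 12.6 and 10.4 CPM in WT livers. The groups did not overlap and H2-Q6 rose by 0.93 (SE 0.13, limma adjusted p = 0.0332). H2-Q4, of the same region (chr17:35379617-35384674), had 59.8, 55.7, 60.4, 63.6 and 57.6 CPM in KO and 35.6, 37.6, 46.3, 34.7 and 39 CPM in WT livers, a rise of 0.61 (SE 0.091, limma adjusted p = 0.0363). Again no values overlapped, and the KO values were within 55.7 to 63.6 CPM. The Qa genes resemble each other in sequence and reads may be shared between them. Without K18L07, K18L09, K18L10, W18L01, W18L02, W18L04 or W18L05 neither gene passed the threshold, and without K18L08 H2-Q4 did not, with adjusted p up to 0.111 for H2-Q6 and 0.112 for H2-Q4. Neither gene passed without an expression filter or with all 4 liver groups in 1 fit. H2-Q4 also did not pass with columns scaled to equal sums or without the variance trend.

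The promoters of both genes are shown because the genes were higher together (RefSeq, GRCm38.p6, plus strand, the 250 bases before the start; capitals mark the longest shared run).
H2-Q6, chr17:35424600-35424849: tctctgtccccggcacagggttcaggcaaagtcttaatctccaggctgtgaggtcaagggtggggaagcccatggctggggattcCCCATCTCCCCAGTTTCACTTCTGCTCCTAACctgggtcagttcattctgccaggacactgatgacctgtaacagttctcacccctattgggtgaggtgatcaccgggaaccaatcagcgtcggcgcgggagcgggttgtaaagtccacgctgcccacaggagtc
H2-Q4, chr17:35379367-35379616: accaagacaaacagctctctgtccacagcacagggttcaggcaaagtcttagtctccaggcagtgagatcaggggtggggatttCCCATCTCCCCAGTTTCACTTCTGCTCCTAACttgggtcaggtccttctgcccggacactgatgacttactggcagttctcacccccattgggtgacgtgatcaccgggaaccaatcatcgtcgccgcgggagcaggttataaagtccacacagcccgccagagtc
They were identical at 209 of 251 aligned positions (83.3%), with a shared run of 32 bases. Each held 2 matches to CCAAT on either strand, a motif present in 40.5% of tested promoters. Neither held the E-box CACGTG on either strand. Nor did either hold an exact match to the strict pattern searched for the interferon-stimulated response element. Variants of that element, which differ from the strict pattern, were not searched, so their presence in these promoters was not tested. The strict pattern was present for 3.27% of tested genes with a promoter entry, for 3 of 18 class I genes and for 18 of 35 interferon-stimulated genes.

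Other genes of the class I pathway had higher KO means without passing the adjusted threshold. Psmb8, a catalytic subunit of the immunoproteasome, had 23.6, 30.1, 26.8, 31.2 and 25.9 CPM in KO and 16.6, 15.5, 20.8, 20.5 and 15.6 CPM in WT livers (log2 difference 0.61, adjusted p = 0.085). All KO values were above all WT values, as they were for H2-D1, a classical class I heavy chain with 1108 to 1292 CPM in KO and 743 to 1078 CPM in WT livers (0.41, adjusted p = 0.174). Nlrc5, the transactivator of class I genes, also did not overlap, at 25.6 to 32.5 CPM in KO and 19.3 to 25.5 CPM in WT livers (0.41, adjusted p = 0.173). H2-K1, the other classical heavy chain, overlapped at 2223 to 2650.5 CPM in KO and 1689 to 2382 CPM in WT livers (0.32, adjusted p = 0.314), and so did the peptide transporter Tap1 (0.42, adjusted p = 0.173). All of these also had a higher KO mean in livers of 5 months, with differences of 0.74 for Psmb8, 0.60 for H2-D1, 0.36 for Nlrc5, 0.43 for H2-K1 and 0.56 for Tap1.

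Interferon-stimulated genes pointed the same way with wider spread. None of 46 was called and none was without overlap (2.47% of all genes were). An unadjusted p under 0.05 was found for 10, all higher (7.72% of all genes were higher at that p). KO means were higher for 44 and the median difference was 0.27 (0.51 without K18L08). Igtp, an interferon-induced GTPase, had 86.6, 146, 53.1, 79.2 and 78 CPM in KO and 58.8, 44.1, 48.5, 37.6 and 56.9 CPM in WT livers (0.78, adjusted p = 0.18). Tgtp1, a related GTPase, had 18, 37.5, 7.52, 11.3 and 11.1 CPM in KO and 5.59, 5.72, 8.65, 4.68 and 6.21 CPM in WT livers (1.15, adjusted p = 0.182). K18L07 was highest and K18L08 lowest among the KO livers for both, so that K18L08 lay within the WT range. The SD between libraries of the list's median level was 0.49, larger than the median difference.

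Ribosomal protein genes, classical Myc targets, are given next. None of 77 was called, but 12 had all KO values below all WT values (1.03% of all genes did) and none the reverse, and 49 had a lower KO mean (median -0.09, -0.01 without K18L06). Rpl12 of the large subunit had 128, 115, 140.5, 129 and 130.4 CPM in KO and 221, 176, 201, 223 and 170.3 CPM in WT livers (-0.62, adjusted p = 0.0504). Rpl3, also of the large subunit, had 213, 199, 243, 233 and 202 CPM in KO and 359, 278, 299, 316 and 278 CPM in WT livers (-0.49, adjusted p = 0.0882). Rps4x of the small subunit had 244, 223, 251, 237 and 241 CPM in KO and 338, 301, 307, 351 and 277 CPM in WT livers (-0.39, adjusted p = 0.101). For these 3 genes every KO liver was below every WT liver, as for Rplp0, with 394 to 463 CPM in KO and 465 to 609 CPM in WT livers (-0.28). A higher KO mean was found for 28 of the 77. In livers of 5 months 2 of the 77 had a higher KO mean and the list's median was -0.30. At an unadjusted p under 0.05, 5 of the 77 were higher and 20 lower, against 7.72% and 5.16% of all genes. Ribosomal protein genes have many processed copies in the genome, to which reads can be assigned.

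Genes of ribosome assembly did not shift as a group. Of 58 tested none was called, 30 had a higher and 28 a lower KO mean, and the median was 0.00 (in livers of 5 months -0.23). Ncl, encoding nucleolin, ranged from 172 to 239 CPM in KO and 203 to 248 CPM in WT livers (-0.11, adjusted p = 0.676). Dkc1, the pseudouridine synthase dyskerin, ranged from 12.3 to 14.9 CPM in KO and 14.8 to 18.7 CPM in WT livers (-0.26, adjusted p = 0.314), while Polr1e, a subunit of RNA polymerase I, had a higher KO mean (0.39, adjusted p = 0.263), with K18L06 within the WT range.

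Of 34 translation factors and aminoacyl-tRNA synthetases none was called (median -0.06, -0.04 without K18L06, -0.09 without K18L08, -0.02 without K18L09 and -0.02 without W18L01). Eef1b2, an elongation factor subunit, was lower in every KO liver, at 129 to 149 against 159.8 to 194 CPM (-0.35, adjusted p = 0.13). Eif4ebp3, which binds and restrains the cap-binding protein eIF4E, had 20.2, 18.4, 51.6, 35.2 and 30.6 CPM in KO and 19.1, 9.96, 8.21, 11.3 and 14 CPM in WT livers (1.21, adjusted p = 0.112). Here only W18L01 reached the KO range. Nucleotide synthesis genes were not called in 22 of 22 tested (median -0.05). Rrm2, the small subunit of ribonucleotide reductase, had 5.49, 7.97, 10.6, 7.67 and 5.83 CPM in KO and 3.9, 3.47, 2.74, 1.91 and 5.47 CPM in WT livers, without overlap (0.94, adjusted p = 0.124). Odc1, the polyamine enzyme and a textbook Myc target, ranged from 84.3 to 103 CPM in KO and 88.6 to 175 CPM in WT livers (-0.27, adjusted p = 0.471).

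Mitochondrial gene groups had medians near 0. Of 76 mitochondrial ribosomal protein genes 39 had a higher KO mean (median 0.01), and of 73 nuclear genes of oxidative phosphorylation 39 had (median 0.01), with no gene called in either list. At an unadjusted p under 0.05, 9 genes were higher and 2 lower in the first list and 17 higher and 4 lower in the second, against 7.72% and 5.16% of all genes. Cox8a, a subunit of cytochrome c oxidase, had 184, 268, 272, 303 and 275 CPM in KO and 177, 186, 179, 191 and 166 CPM in WT livers (0.51, adjusted p = 0.128). K18L06 lay within the WT range and the other KO livers above it, as for Ndufa1 (0.60) and Ndufa3 (0.59) of complex I, where K18L06 had 32.2 and 40.5 CPM. Nnt, the mitochondrial transhydrogenase, had 105, 107, 89.6, 77.6 and 85 CPM in KO and 252, 93.8, 233, 248 and 96.8 CPM in WT livers. The WT livers formed a high set (W18L01, W18L03 and W18L04) and a low set (W18L02 and W18L05) within the KO range, and the difference was -0.86 (adjusted p = 0.247).

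**Figure D3:**
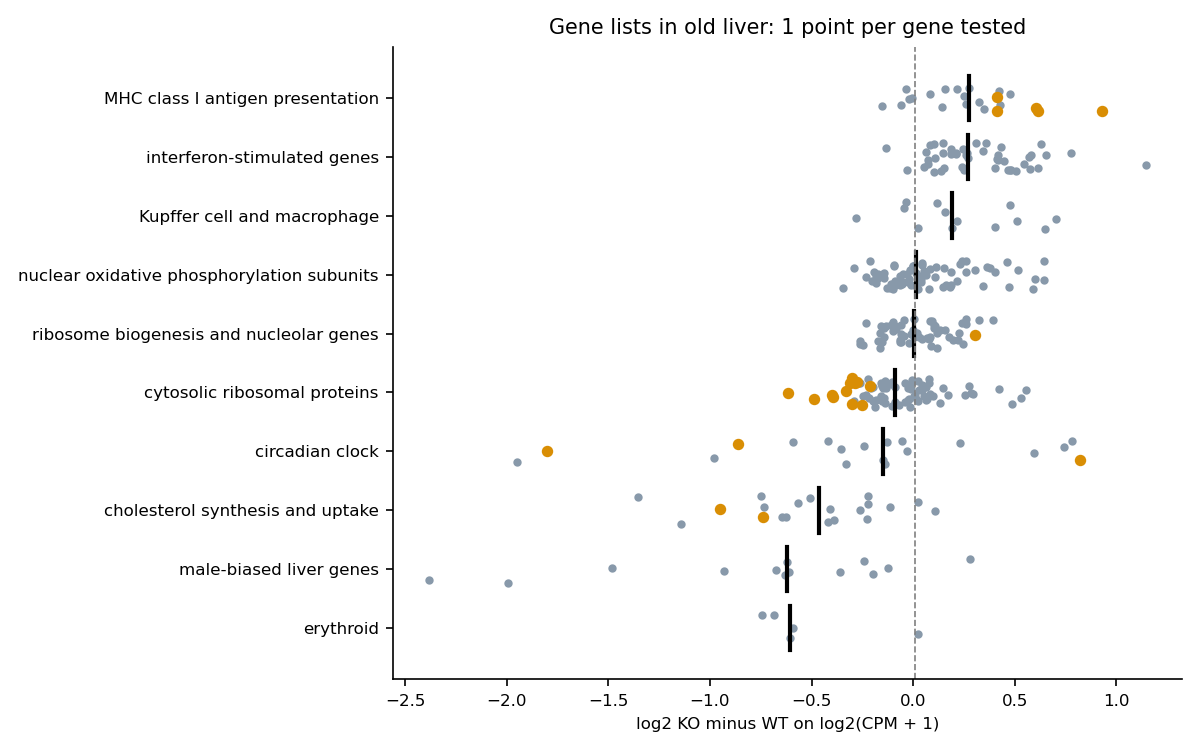
Log2 difference, KO minus WT, of the genes tested in 10 lists, 1 point per gene, with black bars at each list's median and a dashed line at the median of all genes. Orange points are genes whose KO and WT values do not overlap; they number 5 in the MHC class I list (median 0.27) and 12 in the cytosolic ribosomal protein list (median -0.09).

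Cholesterol synthesis genes had lower means in KO livers. None of 20 was called, 18 had a lower KO mean and the median was -0.47. At an unadjusted p under 0.05, 10 were lower (5.16% of all genes were). Hmgcs1, an early enzyme of the mevalonate pathway, had 214, 202, 115, 140.3 and 134 CPM in KO and 269, 242, 286, 267 and 245 CPM in WT livers, without overlap (-0.74, adjusted p = 0.1). Stard4, a cytosolic sterol carrier, had 35.9, 35.8, 19.95, 33.3 and 42.3 CPM in KO and 47.9, 45.4, 54.3, 125 and 70.6 CPM in WT livers, again without overlap (-0.95, adjusted p = 0.179). Idi1, the isoprenoid isomerase, had 41.3, 25.2, 10.9, 28.2 and 23.2 CPM in KO and 47.7, 28.6, 76, 128 and 70.2 CPM in WT livers (-1.35, adjusted p = 0.179). W18L04 was highest for Stard4 (-0.71 without W18L04) and Idi1 (-1.10 without W18L04), and without it the list's median was -0.25, with 16 of 20 means lower. In livers of 5 months the median of this list was 0.04.

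Lipid synthesis genes did not follow. Of 21 fatty acid and triglyceride synthesis genes none was called (median 0.01). Fasn, fatty acid synthase, ranged from 159 to 251 CPM in KO and 111 to 169 CPM in WT livers (0.45, adjusted p = 0.247), and Srebf1, its sterol-regulated activator, from 48.1 to 98 and 75.1 to 95.8 CPM (-0.38, adjusted p = 0.345). Of 26 fatty acid oxidation genes none was called (median -0.12, with a change of sign to 0.05 without W18L01). Acaa2, a mitochondrial thiolase, was below WT in every KO liver, at 1318 to 1465 against 1552 to 2042 CPM (-0.35, adjusted p = 0.235). Plin3, which coats lipid droplets, was above WT in every KO liver, at 52.1 to 64.2 against 40.2 to 45.5 CPM (0.43, adjusted p = 0.085). Pklr, the liver pyruvate kinase, had 347, 133, 186, 197 and 187 CPM in KO and 65.4, 119.8, 145, 129.9 and 150.3 CPM in WT livers (0.76, adjusted p = 0.259), with K18L06 highest.

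Clock genes were uneven between libraries. Of 19 tested none was called, and 14 had a lower KO mean. Nr1d1, the repressor REV-ERB alpha, had 45.7, 18.5, 24.1, 24.7 and 26.7 CPM in KO and 146, 84.8, 49.3, 241 and 54.3 CPM in WT livers (-1.80, adjusted p = 0.1). Nr1d2, its paralog, had 29.9 to 39.6 CPM in KO and 44.7 to 116 CPM in WT livers (-0.86, adjusted p = 0.149). For both genes every KO liver was below every WT liver, with W18L04 the highest. In W18L04 the clock genes were at other levels than in the remaining libraries. Arntl, the core activator, had 4.06 CPM there against 25.4 to 32.5 CPM in the other 9 libraries. Dbp, a clock output gene, had 255 CPM there and 1.75 to 19.6 CPM in the others. Without W18L04 the difference for Nr1d1 was -1.47 (adjusted p = 0.112), that for Nr1d2 was -0.64 and the median of the list changed from -0.15 to 0.06. The labels give no time of day of sampling.

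**Figure D4:**
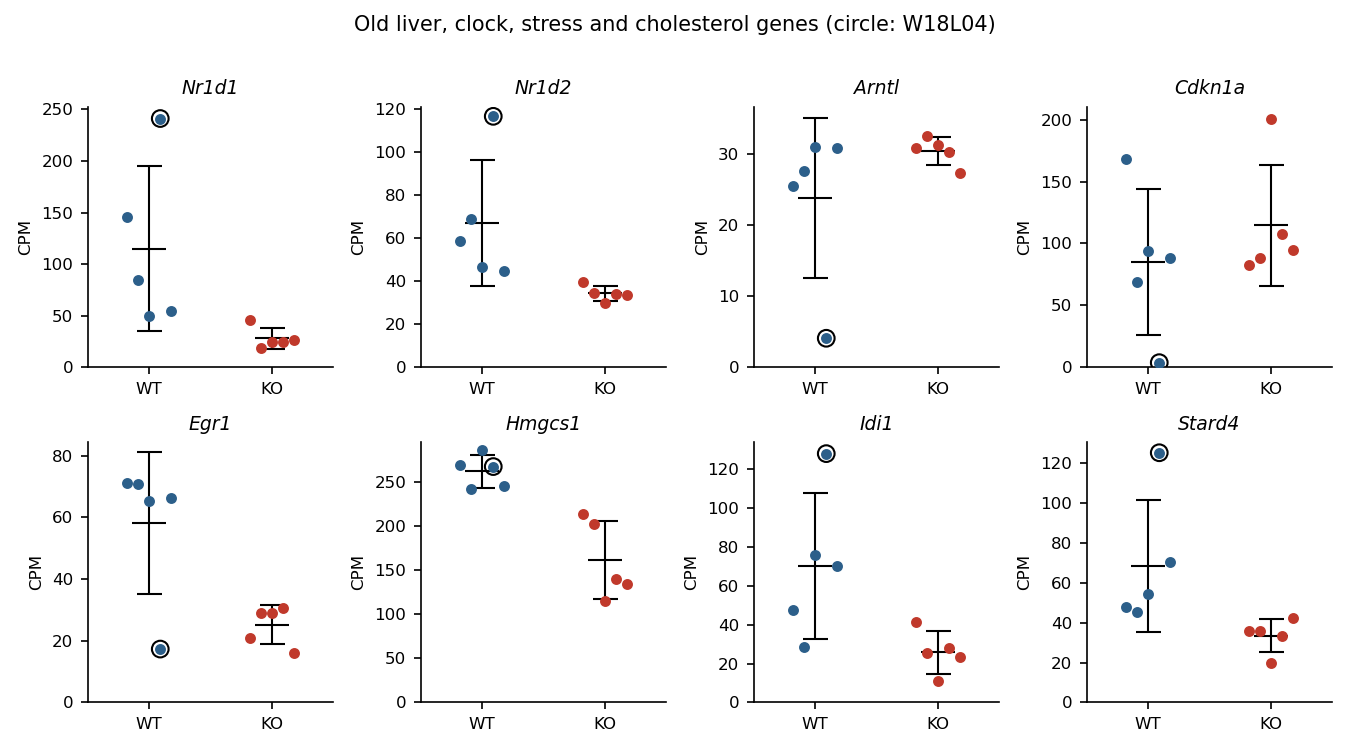
CPM of clock genes (Nr1d1, Nr1d2, Arntl), Cdkn1a, Egr1 and cholesterol genes (Hmgcs1, Idi1, Stard4) in each old liver library (points: blue WT, red KO; bars: mean and SD of 5 libraries). The circled point is W18L04, at 4.06 CPM for Arntl, 3.63 CPM for Cdkn1a and 241 CPM for Nr1d1.

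No difference was called among cell cycle genes. Of 38 genes 22 passed the filter, and none was called or had an unadjusted p under 0.05 (median 0.01). Of all genes 12.9% had such an unadjusted p. Ccnd1, cyclin D1, had 15.5, 57.5, 48.6, 15.7 and 19.3 CPM in KO and 18.5, 16.5, 53.7, 13.2 and 21.6 CPM in WT livers, with K18L07, K18L08 and W18L03 high (0.29, adjusted p = 0.81). Tk1, the thymidine kinase of replicating cells, ranged from 5.78 to 14.4 CPM in KO and 6.24 to 41.4 CPM in WT livers (-0.65, adjusted p = 0.483, and -0.29 without W18L04). Cdkn1a, encoding the inhibitor p21, had 82.5, 88, 200.4, 108 and 94.4 CPM in KO and 168, 69, 93.8, 3.63 and 88.5 CPM in WT livers. Its difference of 1.01 (adjusted p = 0.593) rested on W18L04 and was 0.12 without it. Of 21 cell cycle inhibitors and p53 targets 17 had a higher KO mean and none was called (median 0.15, 0.08 without W18L01 and 0.29 without W18L03), for example Plk2 (0.43, adjusted p = 0.201) and Aen (0.52, adjusted p = 0.275). In the Bcl2 family of 18 genes Bid alone was called (0.0323% of all genes fell). The effectors Bax, at 25 to 35.9 CPM in KO and 16.3 to 30.3 CPM in WT livers (0.53, adjusted p = 0.194), and Bak1 (0.35, adjusted p = 0.265) had higher KO means. In DNA repair Xpc, which recognises helix distortions, was above WT in every KO liver, at 31.5 to 35.2 against 26.2 to 29.3 CPM (0.27, adjusted p = 0.187), and none of 30 genes was called.

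Hepatocyte functions differed gene by gene, with none called. Glul, the glutamine synthetase of the hepatocytes next to the central vein, had 1107, 1405, 999, 759 and 1139.5 CPM in KO and 570.2, 515, 735, 692 and 575 CPM in WT livers, without overlap (0.79, adjusted p = 0.0882). The 13 pericentral markers had a median of 0.14 and the 13 periportal markers of 0.08, and both changed sign when single libraries were left out. Cyp2b10, a drug-inducible cytochrome P450, had 92.8, 44.4, 76.6, 67.8 and 29.9 CPM in KO and 1.95, 9.96, 52.1, 4.93 and 19.7 CPM in WT livers (2.34, adjusted p = 0.173). Only W18L03 among the WT livers reached the KO range. Nr0b2, the bile acid-induced repressor SHP, had 22.9, 15.3, 18.8, 73.8 and 14.6 CPM in KO and 28, 109.8, 67.2, 114 and 59.4 CPM in WT livers (-1.48, adjusted p = 0.201), with K18L09 high among the KO livers. The metallothionein gene Mt2 had 70.5, 71.8, 95.8, 109 and 83.2 CPM in KO and 63.4, 18.2, 13.6, 73.2 and 11.2 CPM in WT livers (1.63, adjusted p = 0.179).

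Of 13 male-biased liver genes, which growth hormone pulses maintain, 12 had a lower KO mean (median -0.62, library SD 0.70). Mup20, a major urinary protein, had 3371, 2459.5, 5836, 2599.8 and 4757 CPM in KO and 8515, 5618, 2443, 10550.3 and 12275 CPM in WT livers (-0.93, adjusted p = 0.361), with W18L03 lowest of the WT livers. Hsd3b5, a male-specific steroid enzyme, had at most 1.02 CPM in KO livers and 2.54, 1.69, 0.0558, 105 and 3.92 CPM in WT livers, with W18L04 far above the rest (-1.99, adjusted p = 0.386, and -0.93 without W18L04). The list's median was -0.36 without K18L09, -0.96 without W18L03, -0.37 without W18L04 and -0.32 without W18L05. Egr1, an immediate early gene, had 20.8, 29, 29.1, 30.6 and 16.1 CPM in KO and 71.1, 70.9, 65.3, 17.3 and 66.2 CPM in WT livers (-1.06, adjusted p = 0.242). W18L04 was the only WT liver within the KO range, and without it Egr1 differed by -1.45 and passed the threshold (limma adjusted p = 0.00661). Of 29 stress response genes none was called, with the small heat shock protein gene Hspb1 at 0.81 (adjusted p = 0.195) and the chaperone gene Hspa8 at -0.39 (adjusted p = 0.287). Of 29 acute phase and complement genes 21 had a higher KO mean and none was called (median 0.14, 0.09 without K18L10, 0.03 without W18L02, 0.23 without W18L04 and 0.02 without W18L05).

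Markers of other liver cells are given by their summed CPM, since fewer cells of a type and less RNA per cell cannot be told apart in bulk tissue. Kupffer cell and macrophage markers summed to 391 to 537 CPM in KO and 298 to 461 CPM in WT livers. None of the 13 was called and 10 had a higher KO mean (median 0.19, 0.30 without K18L07). C1qa, a complement subunit made by macrophages, had 34.2, 41.3, 39, 52.9 and 58.4 CPM in KO and 24.6, 36.1, 31.3, 23.4 and 21.4 CPM in WT livers (0.70, adjusted p = 0.139). The part of these cells in the class I and interferon results was not tested. Of the T and NK cell markers 3 of 16 passed the filter, Trac and Trbc2 were listed at 0 in all 10 libraries, and the sum was 8.96 to 18.5 CPM in KO and 4.37 to 12.7 CPM in WT livers. Cd8a, the co-receptor of cytotoxic T cells, was at 1.23 to 1.49 CPM in KO and 0.148 to 1.17 CPM in WT livers, without overlap (0.53, adjusted p = 0.295). Cd8a passed the filter of more than 1 CPM through its KO livers, so its lack of overlap is tied to the filter. It lies on chromosome 6 as well, 41.7 Mb from Gt(ROSA)26Sor.

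Among blood cell markers, the neutrophil gene S100a9 was above WT in every KO liver, with 6.42, 2.81, 6.7, 5.37 and 6.92 CPM in KO and 2.41, 2.6, 2.29, 1.42 and 2.14 CPM in WT livers (1.03, adjusted p = 0.0882). Its partner S100a8 had 1.89 to 4.88 and 0.985 to 2.34 CPM (0.82, adjusted p = 0.15). Of 10 neutrophil markers 3 passed the filter, and all 10 summed to 5.98 to 15.4 CPM in KO and 2.77 to 6.87 CPM in WT livers. Of 12 B and plasma cell markers 5 passed the filter, of which 4 had a lower KO mean. The median of the 5 was -0.72, and between -1.04 and -0.09 with other pseudocounts, filters and scalings. At an unadjusted p under 0.05, 3 were lower (5.16% of all genes were), and 2 had all KO values below all WT values (1.03% of all genes did). The sums of all 12 overlapped, at 383 to 657 CPM in KO and 329 to 559 CPM in WT livers. Cd79b, of the B cell receptor, was below WT in every KO liver, at 0.92 to 1.6 CPM in KO and 1.76 to 4.22 CPM in WT livers (-0.76, adjusted p = 0.173). Its WT livers alone let Cd79b pass the filter of more than 1 CPM, so its lack of overlap is tied to the filter. Ighm, Igkc and Iglc2 were listed at 0 in all 10 libraries. With these at 0 and Cd79b at a few CPM, the sums rest mostly on other members of the list. Erythroid markers, a measure of blood left in the tissue, summed to 396 to 756 CPM in KO and 653 to 1066 CPM in WT livers. Hbb-bs, a beta globin, ranged from 142 to 299 CPM in KO and 240.4 to 432 CPM in WT livers (-0.61, adjusted p = 0.212), and the part of residual blood in the leukocyte values was not tested. Sinusoidal endothelial markers overlapped in every gene (sums of 432 to 617 and 425 to 592 CPM), and none of 10 stellate cell and fibroblast markers was called.

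Inflammatory and matrix genes held few differences. Mmp12, the macrophage elastase, was above WT in every KO liver, with 7.96, 3.88, 2.97, 2.45 and 3.13 CPM in KO and 0.975, 1.48, 1.51, 1.48 and 1.26 CPM in WT livers (1.03, adjusted p = 0.11). None of the 16 genes tested of this list was called (median 0.19, 0.08 without W18L01), nor any of 25 collagen and matrix genes (median 0.05).

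Outside the lists, the genes without overlap and with the smallest unadjusted p are given as values. Among those higher in KO livers, Lgals3, the galectin of activated macrophages, ranged from 6.85 to 8.78 CPM in KO and 3.33 to 5.25 CPM in WT livers (0.79, adjusted p = 0.0622). Hexa, a lysosomal hexosaminidase subunit, had 124, 105, 86.8, 103 and 107 CPM in KO and 68.2, 70.6, 73.9, 63.7 and 53.4 CPM in WT livers (0.67, adjusted p = 0.0622). Leap2, a liver-secreted antagonist of the ghrelin receptor, had 42.4, 61.2, 74.6, 56 and 76.9 CPM in KO and 38.1, 32.5, 28.7, 20.8 and 29.5 CPM in WT livers (1.03, adjusted p = 0.0756). Plcxd1 (1.26), Hsf4, a heat shock transcription factor (0.68), and Col15a1, a basement membrane collagen (0.73), had adjusted p of 0.0819, 0.0834 and 0.0834. Among those lower, Noct, a rhythmic phosphatase of NADP(H), had 11.2, 21.6, 53.1, 30.9 and 22.2 CPM in KO and 69.4, 72.8, 74.7, 184 and 82.9 CPM in WT livers (-1.82, adjusted p = 0.085), with W18L04 the highest (-1.56 without W18L04). Ppm1k, the phosphatase that activates branched-chain amino acid breakdown, had 109.8, 82.6, 73.6, 83 and 64.9 CPM in KO and 122, 176, 113, 182 and 163 CPM in WT livers (-0.85, adjusted p = 0.0835). Pdp2, which activates pyruvate dehydrogenase, ranged from 38.8 to 48.7 CPM in KO and 55.4 to 91.7 CPM in WT livers (-0.71, adjusted p = 0.0924). Rassf3 (-0.67), the thiamine transporter gene Slc19a2 (-0.70) and Unc13b (-0.63) had adjusted p of 0.0834, 0.0877 and 0.0961.

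The same contrast was taken in livers of 5 months (6 KO and 6 WT libraries of the same strains and treatment). Its differences and ranges share no library with the old comparison, but the genes are those that passed the filter in the old livers. In each genotype 2 of the 6 libraries of 5 months had Xist and no Y-linked reads, while all 10 old libraries had Y-linked reads. Of the 305 genes without overlap in old liver 215 (70.5%) had the same sign at 5 months, against 54.9% of all genes. The 6 called genes all had the same sign, and 4 of them did not overlap at 5 months either (0.178% of all genes did not overlap there, 0.121% with KO above and 0.0566% with KO below). At 5 months 0.0647% of all genes were called, among them Mug2, Bid, Gt(ROSA)26Sor and Myc. These calls came from a fit over all 22 liver libraries, so their variance also draws on the old livers. Myc ranged from 1.16 to 4.04 CPM in KO and 5.46 to 33.7 CPM in WT livers of 5 months, with a difference of -2.38. Mug2 ranged from 11.5 to 214 CPM in KO and 344 to 686 CPM in WT livers of 5 months (-3.34), and Bid from 5.79 to 12.5 and 14.2 to 20.7 CPM (-1.0). H2-Q6 had a difference of 1.0 and H2-Q4 of 0.72, with overlapping values. The genes without overlap in the same direction at both ages were Mug2, Bid, Gt(ROSA)26Sor, Myc, Pvt1 and Cd8a, and none was without overlap in opposite directions. Of these, Cd8a lay near 1 CPM in old liver and had passed the expression filter through its KO livers. Nr1d1 (-0.01) and Hmgcs1 (0.19), lower in every KO liver at 20 months, had these differences at 5 months and overlapping values there. No gene passed the test of a KO effect that differs between the ages (interaction in limma over 22 liver libraries, adjusted p under 0.05), while 481 genes (3.89%) had an unadjusted p under 0.05, with 0 called by edgeR and DESeq2 too. Myc in WT livers was 5.46 to 33.7 CPM at 5 months and 5.36 to 7.61 CPM at 20 months, which overlap, and its interaction had an unadjusted p of 0.0126, adjusted to 0.992.

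**Figure D5:**
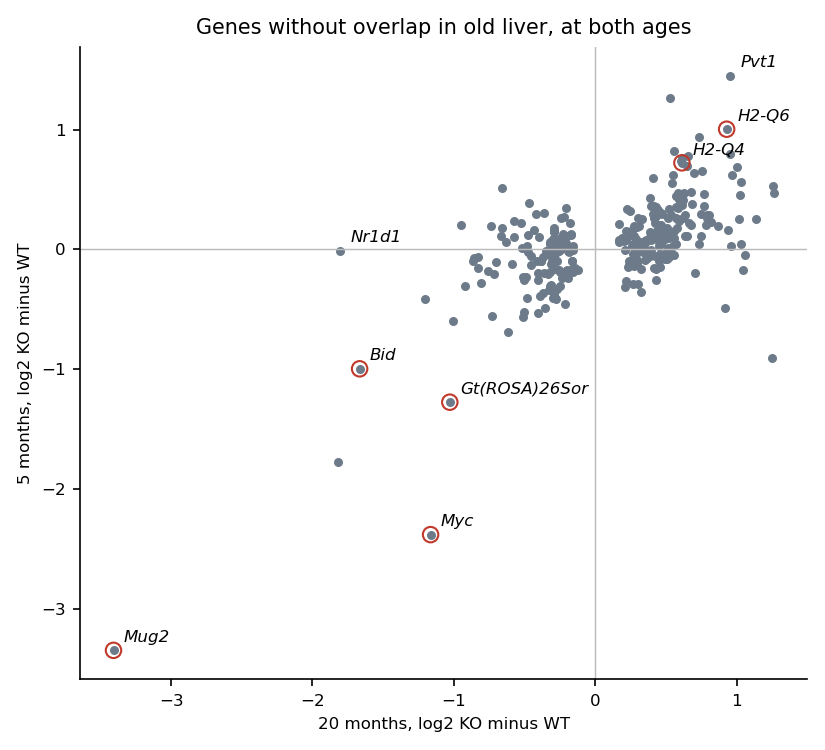
Log2 difference, KO minus WT, at 20 months (horizontal) and 5 months (vertical) for the 305 genes whose values did not overlap in old liver, 1 point per gene, with the 6 called genes circled. The axes share no library; 215 of the 305 points have the same sign on both.

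In the other tissues of the same age the called genes are given by their range. Myc overlapped between genotypes in both, with 5.14 to 9.72 CPM in KO and 8.1 to 16.3 CPM in WT adipose tissue and 1.75 to 10.2 CPM in KO and 4.97 to 13.1 CPM in WT muscle. Bid had 5.01 to 7.54 CPM in KO and 8.5 to 9.77 CPM in WT adipose tissue, without overlap. In muscle Bid was low in both genotypes and overlapped, at 0.32 to 1.68 CPM in KO and 0.51 to 1.52 CPM in WT. Gt(ROSA)26Sor was below WT in every KO library of adipose tissue (2.52 to 5.81 against 7.31 to 8.19 CPM) and of muscle (0.873 to 2.75 against 3.11 to 5.39 CPM). H2-Q4 was above WT in every KO library of adipose tissue (81.9 to 104 against 53.9 to 81.2 CPM) and of muscle (28.1 to 41 against 13.5 to 23.3 CPM), while the values of H2-Q6 overlapped in both. Mug2, a liver gene, was at or near 0 in most libraries of both tissues. These tissues were not part of the test.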

How the data were processed

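RNA of 10 old liver libraries (poly-A selected, stranded kit, per the labels' protocols) was analysed. The authors deposited 1 table with a read signal per gene and library, headed CPM, whose columns differ in sum. Builds GRCm38.p6 and mm10 are named per the submitters' processing notes, and the aligner, annotation and use of strand are not given in the sources used here. Low values of every library were whole multiples of 1 read (100% within 0.01), so reads were recovered. Genes above 1 CPM in at least 5 of 10 libraries (12371) were tested with limma 3.58.1 (R 4.3.3) on log2(CPM + 1) with a variance trend and Benjamini-Hochberg adjustment, called at an adjusted p under 0.05. Myc was also tested by an exact permutation test. The interaction with age and the calls at 5 months used 22 liver libraries. Alternatives included edgeR 4.0.16 and DESeq2 1.42.0 on recovered reads, other scalings, pseudocounts and filters, and each library left out. The main limma fit was tested on simulated counts with the same assumed spread for every gene, which was not matched to the spread of these libraries. The other fits were not tested on simulated counts.

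Named genes were those listed by name (such as Myc, Mycl, Max and Pvt1), all called genes, up to 10 per direction without overlap and with the smallest unadjusted p, and in each list the first tested member and the 3 with the smallest unadjusted p. H2-D1, Tap1, Nlrc5, Dbp, Zfand4, Sumf1, Fbxl14 and Thumpd3 were named after their values were seen. Some genes that the rule names are not reported here. The comparison and the lists were chosen with earlier results of these data known. 996 of 36332 gene identifiers without a symbol held 0.146% of the old liver reads.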

Additional observations from a re-analysis of the deposited data

Results flagged for a closer look

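For the genes named in the text, each group of 5 libraries was searched for a library whose gap to its nearest neighbour was a large part of the group's range (above 0.71, Dixon's 95% critical value for 5 samples). Of 178 groups of 89 genes 18 held such a library, where chance gives about 1 in 20 groups and the share over all 12371 genes was 5.71% in KO and 6.44% in WT livers. K18L06 and W18L04 each accounted for 6 of them and W18L01 for 4. Over all genes W18L01 stood apart for 300, K18L06 for 295 and W18L04 for 236.

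K18L06 stood apart from the other 4 KO livers for Ndufa3 at 40.5 CPM against 58.6 to 62.5 CPM (gap 0.849 of the range), Cox8a at 184 CPM against 268 to 303 CPM (gap 0.758 of the range), Ndufa1 at 32.2 CPM against 52.3 to 60.04 CPM (gap 0.778 of the range), Polr1e at 4.16 CPM against 6.27 to 6.91 CPM (gap 0.802 of the range), Bak1 at 14.8 CPM against 18 to 19.3 CPM (gap 0.73 of the range) and Cd8a at 1.49 CPM against 1.23 to 1.24 CPM (gap 0.951 of the range). K18L09 stood apart from the other 4 KO livers for Nr0b2 at 73.8 CPM against 14.6 to 22.9 CPM (gap 0.728 of the range). W18L01 stood apart from the other 4 WT livers for Myc at 7.61 CPM against 5.36 to 5.47 CPM (gap 0.943 of the range), Pklr at 65.4 CPM against 119.8 to 150.3 CPM (gap 0.727 of the range), Odc1 at 175 CPM against 88.6 to 107 CPM (gap 0.724 of the range) and Apoa1 at 16779 CPM against 7311 to 9093 CPM (gap 0.737 of the range). W18L02 stood apart from the other 4 WT livers for Zfand4 at 6.79 CPM against 10.4 to 12.1 CPM (gap 0.738 of the range). W18L04 stood apart from the other 4 WT livers for Bid at 33.5 CPM against 22.7 to 24.8 CPM (gap 0.773 of the range), Washc2 at 56.5 CPM against 67 to 70.8 CPM (gap 0.758 of the range), Noct at 184 CPM against 69.4 to 82.9 CPM (gap 0.818 of the range), Egr1 at 17.3 CPM against 65.3 to 71.1 CPM (gap 0.938 of the range), Arntl at 4.06 CPM against 25.4 to 30.9 CPM (gap 0.897 of the range) and Cdkn1a at 3.63 CPM against 69 to 168 CPM (gap 0.755 of the range).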

How the results depend on the processing

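The count of 6 called genes became 223 with DESeq2 on recovered reads (131 higher), 3 with all 4 liver groups in 1 fit and 2 without a filter on low values, and it ranged from 2 to 88 when single libraries were left out. The cause was not tested. It was 5 with edgeR, 6 with TMM-type factors, 4 with columns scaled to equal sums, 5 with a pseudocount of 0.1 and 9 with a pseudocount of 5. Mug2 and Bid were called in all 20 alternatives, Gt(ROSA)26Sor and H2-Q6 in 11, and H2-Q4 and Myc in 8. No gene was called for a difference between ages in any alternative run. No paired analysis was possible because the libraries carry codes that KO and WT do not share. Fold changes on the log2(CPM + 1) scale understate those of low genes: for Myc the difference was -1.49 with a pseudocount of 0.1 and -0.61 with one of 5.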
